A study of Mus musculus with 70 samples.

Results

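Mouse embryonic fibroblasts carrying one of a pair of activated kinases were compared after 2 days of doxycycline, and the quantity described is how far the early response to one kinase departed from the early response to the other. The lines are labelled caMEK1, which the series' design text ties to ERK activation and oncogene-induced senescence, and caMKK6, which it ties to p38 activation and stress-induced senescence. For each gene the change under caMEK1 (doxycycline minus no doxycycline) had the change under caMKK6 subtracted from it, on the scale log2(FPKM + 1). A positive difference therefore means a higher response under caMEK1. It rests on 3 libraries in each of 4 groups: MEF caMEK1 and MEF caMKK6, each without doxycycline and with 2 µg/mL doxycycline, all at day 2. They make up 12 of the 70 libraries of the series, which also holds sorted liver and colon cells and fibroblasts at days 4 and 7.

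The fibroblasts came from C57BL/6 embryos labelled male, taken at E13.5 after the head and viscera were removed, and untreated cells were passaged every 3 to 4 days. Each library was made from 100 ng of total RNA. The deposited column headers mark the replicates ex1, ex2 and ex3 without saying what this stands for. Nor do the labels say whether the 3 replicates of a group were separate embryos or cultures. The p-values therefore measure the spread between these libraries, which may be technical. No fibroblast group without a kinase transgene received doxycycline. An effect of the drug that is common to both lines leaves the difference of changes, but stays in each kinase's own change. The promoter that drives the transgenes is not given in the sources used here.

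As background, MEK1 is the kinase that phosphorylates ERK1 and ERK2, and active ERK drives transcription through ETS factors, AP-1 and the immediate early genes while inducing its own inhibitors, the Sprouty proteins and the dual specificity phosphatases. MKK6 phosphorylates p38 kinases, which act in stress and inflammatory signalling, partly through MK2 and the stability of messenger RNAs with AU-rich elements. Sustained activity of either arm can end in senescence, a durable arrest with secretion of cytokines, proteases and growth factors.

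The libraries held between 10827479 and 16115308 reads in genes and between 10034 and 10447 genes at 1 FPKM or more. Over the genes tested, libraries of a group correlated at 0.988 to 0.996. The table lists the transgenes as entries of their own. The frog MEK1 transgene stood at 1.94 to 4.04 FPKM in untreated and 1008 to 1169 in treated caMEK1 libraries, and the human MKK6 transgene at 0.407 to 3.17 and 808 to 1209 in the caMKK6 libraries. MKK6 was listed at 0 in every caMEK1 library of day 2. In contrast, the MEK1 transgene was listed in 4 caMKK6 libraries, at 10.96 and 16.01 FPKM in untreated replicates 2 and 3 and at 16.5 and 12.2 in treated replicates 2 and 3, while replicate 1 of both groups listed 0. The mCherry entry read 1.12 FPKM in untreated caMKK6 replicate 1, 11.1 and 12.6 in replicates 2 and 3, and 2.44 to 4.09 in untreated caMEK1 libraries. Il33, Nptx1, Nefl, Sema7a, Areg, Serpinb2 and Mmp3 were also lower in untreated caMKK6 replicate 1 than in replicates 2 and 3. Itga2 was not, and Stmn4 was highest in replicate 1. What the MEK1 and mCherry reads stand for, and their part in these genes, was not tested. Results are therefore also given with caMKK6 replicate 1 alone. That fit leaves out replicates 2 and 3 of both caMKK6 groups and 1 later library of the same kind. It takes the spread of the lone library from the other groups. A call lost in that fit is named below for some genes only. Genes without such a remark need not have kept their call in it. Marker genes of fibroblasts summed to between 1987 and 3242 FPKM in every library. Markers of macrophages summed to 25.1 to 45.3 FPKM in untreated and 30.5 to 52.1 in treated caMEK1 libraries, and to 31.0 to 205.8 and 89.9 to 369.1 in caMKK6 libraries. Lyz2 had the highest day 2 group mean of these markers, 206.1 FPKM, and the next was Cd68 at 9.63. Ptprc and Aif1 were under 1 FPKM throughout. In these bulk samples fewer cells of a type and less RNA per cell cannot be told apart.

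Roughly as many genes responded to either kinase at day 2, but the responses differed for 2665 of 11347 genes tested (23.5%, limma with Benjamini-Hochberg adjusted p below 0.05, which is what called means below). Of these, 1666 were higher under caMEK1 (14.7%) and 999 lower (8.80%), and 423 and 281 differed by 1 log2 unit or more. The shares of 14.7% and 8.80% are the background for every count of list members below. On its own, caMEK1 raised 2208 genes (19.5%) and lowered 2246 (19.8%), and caMKK6 raised 1625 (14.3%) and lowered 2818 (24.8%). The median difference over all genes was 0.058. The split between higher and lower rests on the scaling of the libraries, since setting all library medians equal gave 1215 higher and 1434 lower and moved the median to -0.034. Quantile normalization gave 1282 higher and 1197 lower. The split of the caMKK6 change turned under median scaling, with 2332 raised and 2073 lowered, and was near even under quantile normalization, with 1963 and 2048. Keeping the replicate numbers as a block within each genotype called 3836 genes (33.8%), 2330 higher (20.5%) and 1506 lower (13.3%). With caMKK6 replicate 1 alone, 1354 genes were called (11.9%), 920 higher (8.11%) and 434 lower (3.82%). That fit kept 1267 of the 2665 calls, and all 2665 kept their direction in it.

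Higher differences came mostly from genes that caMEK1 moved. Of the 1666 genes, 775 rose under caMEK1 with no call under caMKK6, 479 fell under caMKK6 with no call under caMEK1, and 209 rose under caMEK1 and fell under caMKK6. A further 141 rose under both kinases, 22 fell under both, and 40 had no call under either. Among the 999 lower genes, 383 fell under caMEK1 with no call under caMKK6, 324 rose under caMKK6 with no call under caMEK1, and 124 went in opposite directions. Both kinases lowered 120 of them and raised 23, and 25 had no call under either. The caMEK1 change was the larger one in 64.5% of the higher and in 58.5% of the lower genes. Before doxycycline the lines already differed in 735 genes (6.48%), 463 higher in caMEK1 (4.08%) and 272 lower (2.40%). Median scaling made this 319 and 327, quantile normalization 338 and 372, and leaving out 1 library, untreated caMEK1 replicate 1, brought the total down to 336. Untreated differences are given below for named genes that carry one. Between the treated libraries themselves, levels differed for 5318 genes (46.9%), 3522 higher in caMEK1 (31.0%) and 1796 lower (15.8%), and median scaling turned that split into 2286 and 2892.

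**Figure D1:**
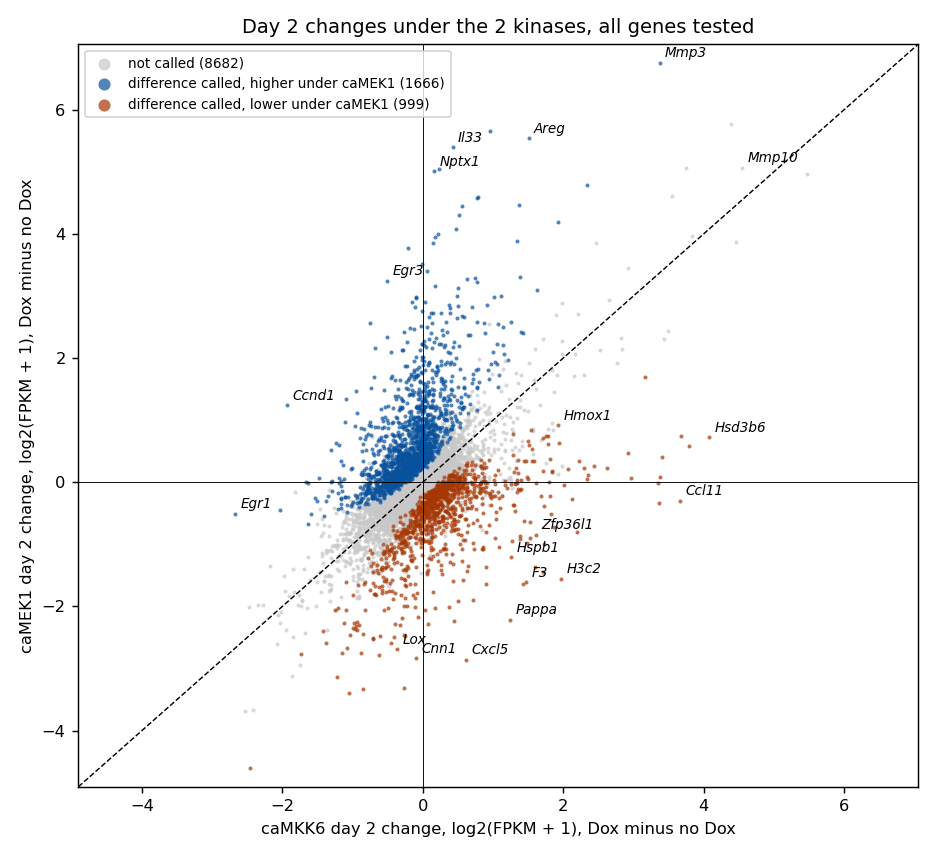
Change at day 2 under caMKK6 (horizontal axis) and under caMEK1 (vertical axis) for 11347 genes, each as log2(FPKM + 1) on doxycycline minus without it, with the line of equal change dashed. Genes with a called difference lie off the line, 1666 above it and 999 below it, and Mmp10 lies close to it although both kinases raised it.

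The dual specificity phosphatases, which remove the activating phosphates from MAP kinases, moved in both directions. Of 11 tested, 5 were higher under caMEK1 and 4 lower, with a median difference of 0.53. Dusp6 read 28.6, 27.5 and 30.8 FPKM in untreated and 104, 108 and 114 in treated caMEK1 libraries, against 28.6, 30.7 and 35.3 in untreated and 23.6, 25.3 and 29.96 in treated caMKK6 libraries. All 3 treated caMEK1 libraries stood above the other 9, and the caMKK6 groups overlapped. Dusp6 is an ERK-specific cytoplasmic phosphatase, and its difference was 2.12 ± 0.14 (adjusted p = 1.90e-09). Dusp5 read 36.9, 40.4 and 34.5 FPKM in untreated and 173, 179 and 183 in treated caMEK1 libraries, against 25.7, 25.01 and 31.7 in untreated and 32.8, 27.3 and 37.1 in treated caMKK6 libraries. For this nuclear ERK phosphatase the difference was 2.01 ± 0.17 (adjusted p = 2.58e-08), beside an untreated difference of 0.43 (adjusted p = 0.0340). Dusp14 at 1.05 and Dusp2 at 1.03 were also higher (adjusted p = 0.00336 and 4.50e-04). Dusp14 stood at 1.09 with caMKK6 replicate 1 alone and lost its call there, and the highest group mean of Dusp2 was 1.65 FPKM. In the other direction, Dusp10, which acts on p38 and JNK, read 9.29, 7.57 and 8.26 FPKM in untreated and 10.1, 8.88 and 9.36 in treated caMEK1 libraries, and 9.05, 8.09 and 8.85 and 30.2, 40.6 and 30.4 in the caMKK6 libraries. Only the treated caMKK6 libraries stood apart, and the difference was -1.67 ± 0.22 (adjusted p = 1.04e-05). Dusp1, an immediate early phosphatase, fell under caMEK1 by 1.08 and had no call under caMKK6 (0.14 ± 0.093), a difference of -1.22 ± 0.13 (adjusted p = 8.96e-07). Dusp4 rose under both kinases, from 41.6 to 48.0 up to 127 to 147 FPKM under caMEK1 and from 60.6 to 65.5 up to 142 to 175 under caMKK6, and its difference of 0.23 ± 0.34 was not called (adjusted p = 0.686). With caMKK6 replicate 1 alone the list held 3 higher and 4 lower.

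Sprouty and Spred proteins, which restrain the pathway between receptors and RAF, were mostly higher under caMEK1. Of 7 tested, 4 were higher and 1 lower (median 0.57), and the block within genotype gave 6 higher and 1 lower. Spry4 read 8.85, 7.37 and 7.41 FPKM in untreated and 38.2, 41.1 and 38.4 in treated caMEK1 libraries, against 6.57, 8.14 and 8.06 in untreated and 11.04, 10.4 and 10.1 in treated caMKK6 libraries. The treated caMEK1 libraries stood above all others, and the treated caMKK6 libraries above their untreated ones. Spry4 thus rose under both kinases, by 2.18 ± 0.11 and 0.43 ± 0.11, and differed by 1.76 ± 0.16 (adjusted p = 8.26e-08). Spred1 and Spred2 rose under caMEK1 alone by call, with differences of 1.64 ± 0.16 and 1.40 ± 0.12 (adjusted p = 3.51e-07 and 6.35e-08). Spry1 went the other way, reading 22.1, 22.4 and 21.8 FPKM in untreated and 4.80, 4.76 and 4.54 in treated caMEK1 libraries and 35.6, 24.7 and 28.3 and 13.3, 9.44 and 14.1 in the caMKK6 libraries. It fell under both kinases, more under caMEK1, and its difference of -0.82 ± 0.22 (adjusted p = 0.00931) became -0.67 (adjusted p = 0.126) with caMKK6 replicate 1 alone.

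In the ERK cascade itself 2 of 14 genes had a called difference, and in the p38 cascade 9 of 13. Over all genes tested the share called was 23.5%. Of 14 ERK cascade genes, 2 were higher, Mapk3 at 0.52 and Nras at 0.30 (adjusted p = 0.00436 and 0.00619), and none was lower. Median scaling gave 1 higher and 1 lower, and the block within genotype gave 4 higher and 0 lower. With caMKK6 replicate 1 alone limma called 0, and 4 had an unadjusted p under 0.05. Of 13 p38 cascade genes, 4 were higher and 5 lower (median 0.13), against 3 higher and 1 lower with caMKK6 replicate 1 alone. Map2k6 read 1.12, 1.41 and 1.51 FPKM in untreated and 3.74, 4.27 and 2.98 in treated caMEK1 libraries, against 0.928, 1.07 and 0.812 in untreated and 0.526, 0.874 and 0.661 in treated caMKK6 libraries. This endogenous gene, an entry apart from the transgene, was higher in all 3 treated caMEK1 libraries than in the other 9, with a difference of 1.19 ± 0.23 (adjusted p = 7.66e-04). Mapk11, which encodes p38 beta, rose under caMEK1 and fell under caMKK6, for a difference of 1.17 ± 0.15 (adjusted p = 7.95e-06) beside an untreated difference of 0.46 (adjusted p = 0.0131). Map2k3, the other main p38 activator, fell under caMKK6 from 48.7 to 55.9 down to 30.8 to 37.7 FPKM and gave 0.79 ± 0.15 (adjusted p = 6.66e-04). Endogenous Map2k1 read 47.4, 46.5 and 45.7 FPKM in untreated and 54.1, 55.9 and 58.5 in treated caMEK1 libraries, 42.4, 41.98 and 39.2 and 51.7, 56.7 and 50.2 in caMKK6 libraries, and its difference of -0.084 ± 0.082 was not called (adjusted p = 0.509).

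Zfp36l1, an RNA-binding protein that destabilises AU-rich messages and is itself a target of MK2, was the member of the p38 list with the greatest absolute difference. Zfp36l1 read 24.7, 24.9 and 22.7 FPKM in untreated and 14.3, 13.3 and 11.5 in treated caMEK1 libraries, against 23.7, 22.7 and 20.6 in untreated and 74.7, 76.7 and 60.02 in treated caMKK6 libraries. All 3 treated caMKK6 libraries stood at 60.0 FPKM or more, all untreated libraries between 20.6 and 24.9, and all treated caMEK1 libraries at 14.3 or below. It changed by -0.84 ± 0.23 under caMEK1 (adjusted p = 0.00579) and 1.61 ± 0.23 under caMKK6 (adjusted p = 2.95e-05), a difference of -2.45 ± 0.32 (adjusted p = 1.11e-05). Its paralogue Zfp36 fell under caMEK1 (-1.23 ± 0.11) with no call under caMKK6 (0.12 ± 0.11), for -1.35 ± 0.16 (adjusted p = 3.16e-06). The promoter of Zfp36l1 is printed because the gene moved in opposite directions. It comes from RefSeq (build GRCm38.p6) and spans chr12:80112964-80113263 on the minus strand, from 250 bases before to 50 after the start. The window holds 1 match to the AP-1 letters TGANTCA, in capitals, 129 bases before the start. That match shows no binding, and the part of AP-1 in Zfp36l1 was not tested.
Zfp36l1: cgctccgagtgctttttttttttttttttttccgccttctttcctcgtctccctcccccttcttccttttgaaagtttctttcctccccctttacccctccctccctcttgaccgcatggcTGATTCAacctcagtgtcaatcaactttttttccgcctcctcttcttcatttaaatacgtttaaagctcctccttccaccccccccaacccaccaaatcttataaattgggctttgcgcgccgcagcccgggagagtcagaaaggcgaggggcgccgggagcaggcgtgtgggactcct

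Among ETS factors the PEA3 group, Etv1, Etv4 and Etv5, which are transcriptional outputs of ERK, were higher under caMEK1. Over the 15 tested ETS genes 4 were higher and 4 lower (median 0.14), and with caMKK6 replicate 1 alone 4 higher and 1 lower. Etv5 read 5.98, 6.37 and 6.23 FPKM in untreated and 9.70, 9.76 and 10.4 in treated caMEK1 libraries, against 6.25, 6.35 and 6.35 in untreated and 2.40, 1.50 and 2.81 in treated caMKK6 libraries. Treated and untreated libraries did not overlap in either line, and they moved in opposite directions. Etv5 differed by 1.80 ± 0.22 (adjusted p = 4.53e-06) and Etv4 by 1.45 ± 0.22 (adjusted p = 6.53e-05), and both rose under caMEK1 and fell under caMKK6. Etv1 gave 1.12 ± 0.16 (adjusted p = 2.98e-05), with a highest day 2 group mean of only 1.51 FPKM. The 4 lower members, Etv6, Erf, Elf4 and Ets2, differed by -0.41 to -0.30, and the call for Erf was lost when any of 9 libraries was left out.

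AP-1 subunits, the partners that bind TGA-type sites as dimers, moved in both directions, and so did the FOS and the JUN families, with Fosl1, Fosb and Jun higher and Fosl2, Jund and Atf3 lower. Of 8 tested, 3 were higher and 3 lower (median -0.092), and 2 and 2 with caMKK6 replicate 1 alone. Fosl1, an ERK-stabilised FOS-family member, read 33.4, 33.9 and 30.01 FPKM in untreated and 56.3, 61.3 and 55.9 in treated caMEK1 libraries, against 33.3, 38.2 and 32.1 and 35.2, 28.6 and 29.3 in caMKK6 libraries. It stood apart in the treated caMEK1 libraries alone and differed by 0.97 ± 0.12 (adjusted p = 3.51e-06). Atf3 read 1.98, 3.25 and 2.38 FPKM in untreated and 1.71, 1.57 and 1.76 in treated caMEK1 libraries, against 2.14, 1.61 and 2.91 in untreated and 9.62, 9.01 and 10.01 in treated caMKK6 libraries. Atf3, a stress-induced factor, was high in treated caMKK6 libraries alone and differed by -2.11 ± 0.23 (adjusted p = 9.99e-07). Jund moved in opposite directions, -0.54 ± 0.11 under caMEK1 and 0.51 ± 0.11 under caMKK6 (difference -1.05, adjusted p = 2.58e-05). Fos fell under both kinases and its difference of 0.038 ± 0.27 was not called (adjusted p = 0.941).

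Immediate early genes did not move together. Of 18 tested, 5 were higher and 7 lower (median -0.067). Egr3, a zinc finger factor downstream of ERK, rose from 1.22 to 1.82 FPKM in untreated to 20.97 to 22.9 in treated caMEK1 libraries and stayed at 1.36 or below in all 6 caMKK6 libraries. Its difference was 3.75 ± 0.20 (adjusted p = 1.18e-10). Egr1 read 58.2, 60.4 and 50.5 FPKM in untreated and 36.1, 42.9 and 39.1 in treated caMEK1 libraries, against 30.8, 44.9 and 39.2 in untreated and 4.41, 3.82 and 7.64 in treated caMKK6 libraries. Egr1 had no called change under caMEK1 (-0.51 ± 0.21, adjusted p = 0.0669), and its higher difference of 2.17 ± 0.30 (adjusted p = 2.09e-05) came from a fall under caMKK6 of 2.68. Klf10 showed the same arrangement, with 0.0099 ± 0.15 under caMEK1 and -1.30 ± 0.15 under caMKK6. The pseudokinase gene Trib1 rose under caMEK1 alone by call and differed by 1.48 ± 0.089 (adjusted p = 3.54e-10). On the lower side, the antiproliferative gene Btg2 and the nuclear receptor Nr4a1 fell under caMEK1, with differences of -1.49 and -1.35 (adjusted p = 4.99e-08 and 2.90e-04), beside untreated differences of 0.40 (adjusted p = 0.0134) and 0.79 (adjusted p = 0.00750).

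**Figure D2:**
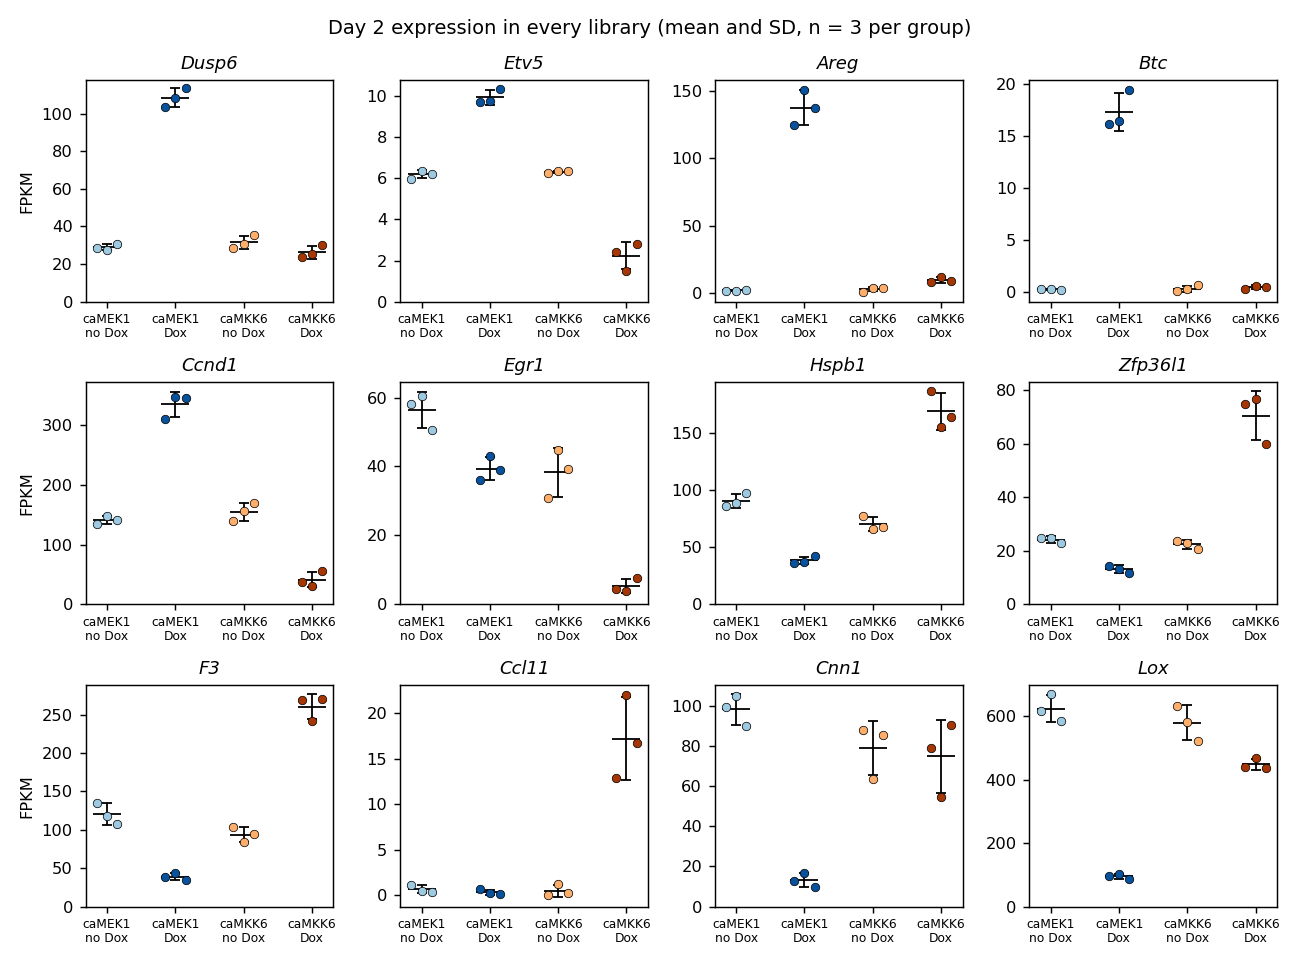
FPKM of 12 genes in each of the 12 libraries (points) with the mean and SD of 3 per group, on axes that start at 0. Dusp6, Areg and Btc are high in the treated caMEK1 libraries alone, Ccl11 in the treated caMKK6 libraries alone, Cnn1 and Lox are lowest in the treated caMEK1 libraries, and Etv5, Ccnd1, Hspb1, Zfp36l1 and F3 move in opposite directions.

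The EGF receptor list, of ligands, receptors, the sheddase Adam17 and the inhibitor Errfi1, was the most one-sided growth factor list. Of 10 tested members, 8 were higher under caMEK1 and none lower, with a median difference of 1.05 against 0.058 over all genes, and 6 were higher with caMKK6 replicate 1 alone. Areg read 1.89, 1.53 and 2.61 FPKM in untreated and 125, 151 and 137 in treated caMEK1 libraries, against 1.17, 3.73 and 4.10 in untreated and 7.96, 12.1 and 9.20 in treated caMKK6 libraries. Amphiregulin rose under both kinases, and the lowest treated caMEK1 library (125 FPKM) stood far above the highest treated caMKK6 library (12.1 FPKM). Its difference was 4.03 ± 0.38 (adjusted p = 1.54e-07). Btc read 0.314, 0.265 and 0.234 FPKM in untreated and 16.2, 16.4 and 19.5 in treated caMEK1 libraries, against 0.0982, 0.282 and 0.649 in untreated and 0.267, 0.618 and 0.533 in treated caMKK6 libraries. Betacellulin was under 1 FPKM in all 9 other libraries and differed by 3.70 ± 0.17 (adjusted p = 2.96e-11). Epiregulin rose under caMEK1 from 18.2 to 20.04 FPKM up to 53.9 to 77.3, and the difference for Ereg was 1.88 ± 0.21 (adjusted p = 1.09e-06). Hbegf and Tgfa, also ligands, differed by 1.73 and 1.13 (adjusted p = 1.07e-05 and 8.86e-06). The coreceptor gene Erbb2 gave 0.90 ± 0.12 (adjusted p = 8.39e-06), rising under caMEK1 and falling under caMKK6. Egfr, which read a mean of 8.58 ± 0.680 (SD, n = 3) FPKM in untreated and 5.44 ± 0.552 in treated caMEK1 libraries, had a difference of -0.33 ± 0.33 that was not called (adjusted p = 0.520).

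IGF-binding proteins moved in both directions. Of 10 IGF system genes, 3 were higher and 2 lower (median -0.30), 3 higher and 4 lower under the block within genotype, and 1 higher and 1 lower with caMKK6 replicate 1 alone. Igfbp3 read 8.17, 8.41 and 10.01 FPKM in untreated and 131, 180.4 and 187 in treated caMEK1 libraries, against 4.68, 10.1 and 12.7 in untreated and 8.77, 14.9 and 13.8 in treated caMKK6 libraries. Igfbp3, the main carrier of IGF in serum, stood apart in the treated caMEK1 libraries and differed by 3.60 ± 0.50 (adjusted p = 2.20e-05). Igfbp5 read 20.7, 15.5 and 15.1 FPKM in untreated and 6.14, 4.98 and 3.51 in treated caMEK1 libraries, against 96.8, 96.5 and 34.5 in untreated and 185, 121 and 96.8 in treated caMKK6 libraries. For Igfbp5 the treated caMEK1 libraries were the lowest and the difference was -2.54 ± 0.54 (adjusted p = 0.00163), beside an untreated difference of -1.96 (adjusted p = 0.00461). Pappa, the protease that cleaves IGF-binding proteins, fell from 6.08 to 6.74 FPKM down to 0.555 to 0.606 under caMEK1 and rose from 5.00 to 6.37 up to 14.1 to 15.5 under caMKK6. Its difference was -3.46 ± 0.26 (adjusted p = 9.09e-09).

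Angiogenic factors moved in both directions, with 4 of 12 tested higher and 2 lower (median 0.32), beside 62.5% higher among all called genes, and 3 higher and 1 lower with caMKK6 replicate 1 alone. Angptl4, a secreted lipase inhibitor, read 4.35, 4.44 and 6.00 FPKM in untreated and 114, 122 and 153 in treated caMEK1 libraries, against 2.51, 3.66 and 4.25 and 8.39, 12.3 and 10.9 in caMKK6 libraries, and differed by 3.09 ± 0.29 (adjusted p = 1.06e-07). Vegfa read 18.7, 16.4 and 14.5 FPKM in untreated and 74.3, 86.9 and 79.4 in treated caMEK1 libraries, against 13.3, 14.5 and 13.4 in untreated and 14.3, 17.9 and 20.1 in treated caMKK6 libraries. Vegfa rose under caMEK1 with no call under caMKK6 and differed by 1.90 ± 0.19 (adjusted p = 2.27e-07). Placental growth factor, Pgf, rose under caMKK6 (1.35 ± 0.27) with -0.11 ± 0.27 under caMEK1, and its difference of -1.46 ± 0.38 (adjusted p = 0.00748) was -1.53 (adjusted p = 0.0806) with caMKK6 replicate 1 alone and had an adjusted p of 0.056 with voom on recovered reads. Adrenomedullin, a vasodilator peptide, moved in opposite directions. Adm read 61.4, 52.4 and 52.7 FPKM in untreated and 18.2, 16.6 and 16.9 in treated caMEK1 libraries, and 37.1, 34.2 and 33.2 and 95.3, 105 and 85.6 in caMKK6 libraries. Its difference was -3.06 ± 0.18 (adjusted p = 3.52e-10), beside an untreated difference of 0.65 (adjusted p = 0.00497).

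Cytokines of the IL-6 and IL-1 families were divided, with 4 of 12 tested higher and 2 lower (median 0.43), 6 higher and 4 lower under the block within genotype, and 2 higher and 1 lower with caMKK6 replicate 1 alone. Il33 read 0.164, 0.249 and 0.0564 FPKM in untreated and 60.8, 53.9 and 32.9 in treated caMEK1 libraries, against 0.0308, 0.736 and 0.756 in untreated and 0.598, 1.44 and 0.951 in treated caMKK6 libraries. The alarmin Il33 had the greatest difference of any gene that met the naming rule, 4.97 ± 0.40 (adjusted p = 1.97e-08), and no caMKK6 library exceeded 1.44 FPKM. Il6 read 7.21, 5.66 and 4.59 FPKM in untreated and 0.579, 1.55 and 0.420 in treated caMEK1 libraries, against 0.658, 1.60 and 1.83 in untreated and 1.42, 2.15 and 3.47 in treated caMKK6 libraries. For Il6, the canonical senescence cytokine, the untreated caMEK1 libraries were the highest of the 4 groups. Il6 fell under caMEK1 (-1.91 ± 0.31) with no call under caMKK6 (0.50 ± 0.31), and the difference of -2.41 ± 0.44 (adjusted p = 4.18e-04) stood beside an untreated difference of 1.55 (adjusted p = 0.00544). Lif, a relative of Il6, was higher at 1.24 ± 0.34 (adjusted p = 0.0107), also beside an untreated difference of 0.98 (adjusted p = 0.0179). Il11 rose strongly under both kinases, from 4.22 to 4.54 FPKM up to 104 to 149.6 under caMEK1 and from 1.83 to 5.78 up to 34.0 to 79.3 under caMKK6, and its difference of 1.07 ± 0.41 was not called (adjusted p = 0.0706, or 0.00219 with the block within genotype).

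The plasminogen system, which turns plasminogen into plasmin at the cell surface, and the TIMP inhibitors of metalloproteinases changed mainly under caMEK1. Of 9 tested, 4 were higher and 2 lower (median -0.15), and 4 and 1 with caMKK6 replicate 1 alone. Plau read 80.8, 91.5 and 86.4 FPKM in untreated and 582, 693 and 682 in treated caMEK1 libraries, against 44.3, 62.8 and 70.6 in untreated and 49.8, 61.6 and 68.4 in treated caMKK6 libraries. Plau, the urokinase activator, rose under caMEK1 alone by call and differed by 2.87 ± 0.29 (adjusted p = 4.01e-07). Serpinb2 read 5.87, 4.89 and 8.49 FPKM in untreated and 156, 179 and 182 in treated caMEK1 libraries, against 1.02, 4.13 and 5.14 in untreated and 2.90, 7.41 and 8.52 in treated caMKK6 libraries. Serpinb2, an inhibitor of urokinase, differed by 3.81 ± 0.50 (adjusted p = 1.14e-05), and Plat, the tissue activator, by 1.32 ± 0.19 (adjusted p = 3.26e-05) beside an untreated difference of 0.47 (adjusted p = 0.0451). Timp1 and Timp3 went opposite ways under caMEK1. Timp1 rose from 473 to 550.0 FPKM up to 1811 to 1954 (difference 2.09 ± 0.23 (adjusted p = 1.40e-06), untreated difference 0.67 (adjusted p = 0.0194)), and Timp3 fell from 76.4 to 91.1 down to 16.4 to 21.7 (difference -2.08 ± 0.38 (adjusted p = 4.04e-04)). Neither changed by call under caMKK6.

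The metalloproteinases Mmp3, Mmp10 and Mmp13, which degrade matrix, rose under both kinases. Of 14 tested, 2 were higher and 4 lower (median -0.45), and 0 higher and 2 lower with caMKK6 replicate 1 alone. Mmp3 read 2.93, 1.20 and 2.26 FPKM in untreated and 383, 306 and 299.9 in treated caMEK1 libraries, against 0.592, 6.36 and 7.08 in untreated and 36.2, 103 and 26.1 in treated caMKK6 libraries. Every treated library of either line exceeded every untreated one, and the treated caMEK1 libraries were the highest. Stromelysin 1 differed by 3.39 ± 1.00 (adjusted p = 0.0181). The call was lost with caMKK6 replicate 1 alone, at 2.21 (adjusted p = 0.218), without replicate 3 of either caMKK6 group (adjusted p = 0.0514 for the untreated and 0.0501 for the treated library) and with voom on recovered reads (adjusted p = 0.164). Mmp10 and Mmp13, both of which rose under both kinases, had differences of 0.52 ± 0.70 and -0.49 ± 0.52 that were not called (adjusted p = 0.654 and 0.549). Over the 14 metalloproteinases the block within genotype gave 2 higher and 6 lower. Mmp12 read 0.168, 0.330 and 0.180 FPKM in untreated and 0.380, 0.540 and 0.503 in treated caMEK1 libraries, against 1.03, 0.460 and 1.77 in untreated and 11.7, 10.7 and 7.73 in treated caMKK6 libraries. Macrophage elastase was under 2 FPKM in the other 9 libraries and differed by -2.17 ± 0.42 (adjusted p = 6.65e-04), with an adjusted p of 0.21 by voom. Mmp8, a collagenase of neutrophils, gave -1.45 ± 0.24 (adjusted p = 1.68e-04), with 0.0897 by voom. The macrophage marker sum given above, with Lyz2 its largest member by far, reached its highest values in treated caMKK6 libraries too. The part of such cells in these values was not tested. Limma called 0 of the 6 tested markers, with 0 at an unadjusted p under 0.05, and the block within genotype called 1 lower, Lyz2.

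Tissue factor, F3, which starts coagulation, moved in opposite directions. F3 read 135, 119 and 107 FPKM in untreated and 38.1, 43.7 and 34.8 in treated caMEK1 libraries, against 103, 84.1 and 94.1 in untreated and 269, 241 and 271 in treated caMKK6 libraries. The 4 groups did not overlap, with the treated caMEK1 libraries lowest and the treated caMKK6 libraries highest. F3 changed by -1.61 ± 0.12 under caMEK1 (adjusted p = 2.27e-09) and 1.47 ± 0.12 under caMKK6 (adjusted p = 1.43e-07), a difference of -3.07 ± 0.17 (adjusted p = 2.05e-10). Promoters of Mmp3 and F3, whose differences went opposite ways, are shown because AP-1 sites are known to act in both genes in other cells. They come from RefSeq (GRCm38.p6, plus strand), with matches to TGANTCA in capitals. The Mmp3 window is chr9:7445572-7445871, with a match 46 bases before the start, and the F3 window is chr3:121723287-121723586, with matches 146 and 135 bases before it.
Mmp3: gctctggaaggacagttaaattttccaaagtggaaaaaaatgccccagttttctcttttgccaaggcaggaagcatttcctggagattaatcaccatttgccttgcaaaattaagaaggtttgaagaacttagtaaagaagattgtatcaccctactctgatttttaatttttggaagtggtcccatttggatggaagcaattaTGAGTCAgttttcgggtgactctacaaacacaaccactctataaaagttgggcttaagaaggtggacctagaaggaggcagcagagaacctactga
F3: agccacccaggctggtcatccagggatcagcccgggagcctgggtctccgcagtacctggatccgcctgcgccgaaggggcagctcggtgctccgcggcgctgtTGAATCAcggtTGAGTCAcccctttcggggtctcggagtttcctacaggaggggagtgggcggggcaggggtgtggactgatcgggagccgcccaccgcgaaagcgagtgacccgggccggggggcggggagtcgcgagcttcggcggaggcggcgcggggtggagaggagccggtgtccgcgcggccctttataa
These letters, read on both strands, occurred in 2565 of 32851 RefSeq promoter windows of this length (7.81%). Among genes tested they occurred in 579 of 9087 (6.37%), and among metalloproteinase promoters in 4 of the 10 that were found (40.0%). The matches describe the windows and show no binding, and the part of AP-1 in Mmp3 and F3 was not tested.

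Chemokines with a called difference were mostly lower under caMEK1, by a fall under that kinase in some genes and a rise under caMKK6 in others. Of 14 tested, 1 was higher and 5 lower (median -1.11), the block within genotype gave 1 higher and 10 lower, and caMKK6 replicate 1 alone 1 higher and 4 lower. Ccl11 read 1.12, 0.442 and 0.301 FPKM in untreated and 0.619, 0.245 and 0.0673 in treated caMEK1 libraries, against 0, 1.24 and 0.252 in untreated and 12.9, 22.1 and 16.7 in treated caMKK6 libraries. Eotaxin thus appeared in treated caMKK6 libraries alone, and Ccl11 had the lowest difference of the named genes, -3.96 ± 0.54 (adjusted p = 1.56e-05). Ppbp read 7.74, 9.66 and 11.8 FPKM in untreated and 7.42, 8.19 and 6.59 in treated caMEK1 libraries, against 4.10, 7.84 and 3.15 in untreated and 40.3, 118 and 39.9 in treated caMKK6 libraries. The neutrophil chemoattractant Ppbp, outside the list but among the lowest differences, rose under caMKK6 alone by call and differed by -3.70 ± 0.48 (adjusted p = 1.03e-05). Cxcl5 read 50.5, 37.5 and 36.3 FPKM in untreated and 6.37, 6.57 and 2.50 in treated caMEK1 libraries, against 5.43, 36.04 and 9.70 in untreated and 8.53, 54.1 and 16.4 in treated caMKK6 libraries. Cxcl5, another neutrophil attractant, varied widely among the untreated caMKK6 libraries and was low in all treated caMEK1 libraries, with a difference of -3.47 ± 0.90 (adjusted p = 0.00748). Cxcl14 fell under caMEK1 from 41.9 to 48.7 FPKM down to 3.34 to 3.99, for -3.04 ± 0.41 (adjusted p = 1.57e-05), beside an untreated difference of 2.08 (adjusted p = 2.91e-04). Ccl8 at -2.05 ± 0.68 (adjusted p = 0.0338) lost its call with caMKK6 replicate 1 alone (adjusted p = 0.124), by voom (adjusted p = 0.463) and without any of 6 libraries. The higher member was Cx3cl1, at 1.88 ± 0.34 (adjusted p = 4.35e-04) with an untreated difference of 0.88 (adjusted p = 0.0359). Ccl2 and Cxcl2 rose under both kinases, with differences of 0.23 ± 0.44 and 0.17 ± 0.29 that were not called (adjusted p = 0.756 and 0.733). The summed macrophage markers, given above and with Lyz2 the largest by far, also reached their highest values in treated caMKK6 libraries, and their part was not tested.

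The small heat shock genes Hspb1 and Hspb8 moved in opposite directions under the kinases. Of 14 heat shock genes tested, 3 were lower and none higher, and the share called over all genes was 23.5%. The median was -0.20, and -0.33 with caMKK6 replicate 1 alone. Hspb1 read 85.99, 88.8 and 97.3 FPKM in untreated and 36.5, 37.4 and 42.04 in treated caMEK1 libraries, against 77.1, 66.4 and 67.7 in untreated and 187, 156 and 165 in treated caMKK6 libraries. Hspb1, the HSP27 protein that MK2 phosphorylates, fell under caMEK1 and rose under caMKK6 without overlap. It changed by -1.21 ± 0.15 under caMEK1 (adjusted p = 3.07e-06) and 1.25 ± 0.15 under caMKK6 (adjusted p = 7.55e-06), a difference of -2.46 ± 0.22 (adjusted p = 6.54e-08). Its partner Hspb8 moved in the same opposite ways, differing by -1.51 ± 0.12 (adjusted p = 2.06e-08) beside an untreated difference of 0.34 (adjusted p = 0.0250). Hsph1 gave -0.43 ± 0.14 (adjusted p = 0.0253) and lost its call without any of 6 libraries. The other tested small heat shock genes, Cryab and Hspb2, differed by 0.19 ± 0.51 and -0.32 ± 0.22 without a call (adjusted p = 0.840 and 0.341). The cytosolic chaperones Hspa8 and Hsp90ab1 differed by -0.12 ± 0.13 and -0.012 ± 0.11, without a call (adjusted p = 0.564 and 0.956).

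Most targets of NRF2, the antioxidant transcription factor, rose under each kinase, and called differences lay mostly towards caMKK6. Of 14 tested, 12 rose under caMKK6 and 8 under caMEK1, and the difference was called lower for 7 and higher for 2 (median -0.50). With caMKK6 replicate 1 alone this was 1 higher and 3 lower. Hmox1 read 99.8, 84.9 and 93.7 FPKM in untreated and 174, 158 and 197 in treated caMEK1 libraries, against 116, 142 and 124 in untreated and 518, 487 and 449 in treated caMKK6 libraries. All treated libraries exceeded their untreated ones, and the treated caMKK6 libraries were the highest. Hmox1, the heme-degrading enzyme, differed by -1.01 ± 0.24 (adjusted p = 0.00354). Srxn1 read 43.04, 37.3 and 39.3 FPKM in untreated and 379.8, 414 and 418 in treated caMEK1 libraries, against 38.2, 59.3 and 53.8 in untreated and 123, 141 and 130.1 in treated caMKK6 libraries. Sulfiredoxin, which repairs peroxiredoxins, was ordered the other way round, with a difference for Srxn1 of 1.93 ± 0.19 (adjusted p = 1.85e-07). Nqo1 and Prdx1 rose under both kinases, and their differences of -0.14 ± 0.29 and 0.054 ± 0.19 were not called (adjusted p = 0.780 and 0.878). Over the 14 targets the block within genotype gave 2 higher and 9 lower.

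All 3 metallothioneins, small proteins that bind zinc and copper, were higher under caMEK1, and the zinc transporters Slc30a1 and Slc39a14 of the same list were not called. Mt2 read 29.7, 25.5 and 20.9 FPKM in untreated and 139.8, 172 and 154 in treated caMEK1 libraries, against 28.2, 30.1 and 31.1 in untreated and 88.5, 66.05 and 65.7 in treated caMKK6 libraries. Both kinases raised Mt2, caMEK1 more, for a difference of 1.31 ± 0.20 (adjusted p = 7.11e-05). Mt1 behaved alike at 1.09 ± 0.17 (adjusted p = 5.80e-05), beside an untreated difference of -0.63 (adjusted p = 0.00333). Mt3 reached 2.95 to 5.09 FPKM in treated caMEK1 libraries, stayed under 1 in the others, and differed by 2.20 ± 0.28 (adjusted p = 7.62e-06).

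**Figure D3:**
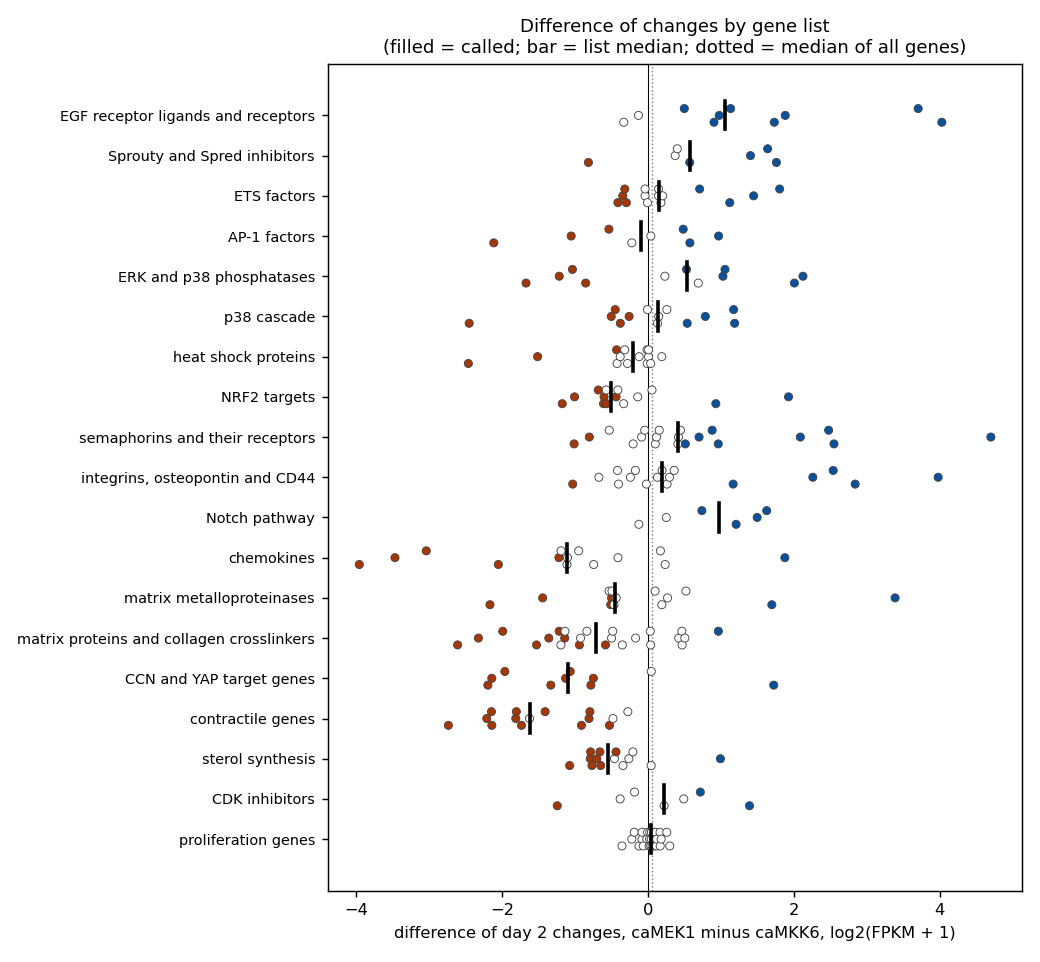
Difference of the day 2 changes (horizontal axis, log2) for the tested members of 19 gene lists, filled where called (blue higher under caMEK1, brown lower) and open where not. The EGF receptor list has 8 filled points above 0 and none below, the contractile list 12 below and none above, and the 28 proliferation genes none on either side.

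Contractile genes, the actins, calponins and myosins of smooth muscle and myofibroblasts, were lower under caMEK1 almost throughout. Of 15 tested, 12 were lower and none higher, with a median difference of -1.62. caMEK1 lowered 14 of them and caMKK6 lowered 4, and 10 were lower with caMKK6 replicate 1 alone. Acta2 read 2256, 2485 and 2574 FPKM in untreated and 393, 489.9 and 392 in treated caMEK1 libraries, against 2625, 2183 and 2722 in untreated and 1644, 1135 and 1905 in treated caMKK6 libraries. Smooth muscle actin thus fell under both kinases, to below 500 FPKM under caMEK1 and to 1135 FPKM or more under caMKK6, and Acta2 differed by -1.81 ± 0.34 (adjusted p = 6.17e-04). Cnn1 read 99.6, 105 and 90.2 FPKM in untreated and 12.9, 16.8 and 10.01 in treated caMEK1 libraries, against 87.96, 63.5 and 85.6 in untreated and 79.1, 54.8 and 90.8 in treated caMKK6 libraries. Calponin 1 was low in the treated caMEK1 libraries alone and overlapped between the caMKK6 groups. Its fall under caMEK1 was -2.83 ± 0.20, its change under caMKK6 -0.092 ± 0.20 (adjusted p = 0.756), and the difference -2.74 ± 0.29 (adjusted p = 6.71e-07). Actg2 at -2.21, Acta1 at -2.15, Myl9 at -2.14 and Lmod1 at -1.81 followed (adjusted p from 1.55e-04 to 0.00871). Des had a difference of -1.62 ± 0.69 and was not called (adjusted p = 0.0994). The block within genotype gave 14 of the 15 genes lower and none higher.

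The contractile genes are textbook targets of serum response factor, which binds the CArG box. A single promoter is shown for that reason, that of Myl9, the regulatory light chain of smooth muscle myosin. The gene read 415, 447 and 429 FPKM in untreated and 65.5, 87.4 and 61.1 in treated caMEK1 libraries, and 357, 296 and 388 and 281, 182 and 315 in caMKK6 libraries. Its RefSeq window is chr2:156775214-156775513 (GRCm38.p6, plus strand), with the CArG match in capitals, 161 bases before the start.
Myl9: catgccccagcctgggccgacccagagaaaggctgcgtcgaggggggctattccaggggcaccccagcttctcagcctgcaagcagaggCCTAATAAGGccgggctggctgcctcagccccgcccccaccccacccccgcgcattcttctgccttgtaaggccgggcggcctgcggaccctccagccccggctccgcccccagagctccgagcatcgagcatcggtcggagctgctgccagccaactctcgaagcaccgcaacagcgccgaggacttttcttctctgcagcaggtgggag
A CArG match stood in 4 of the 12 contractile promoters found (33.3%) and in 535 of 32851 windows (1.63%). Srf itself differed by -0.72 ± 0.11 (adjusted p = 3.59e-05) and fell under caMEK1 (-0.77 ± 0.074). The matches describe these windows and show no binding, and the part of Srf in the contractile genes was not tested.

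Targets of YAP and the matricellular CCN proteins followed the same direction. Of 10 tested, 8 were lower and 1 higher (median -1.10), and 4 and 1 with caMKK6 replicate 1 alone. Ccn2 read 638, 701 and 662 FPKM in untreated and 106, 144 and 114 in treated caMEK1 libraries, against 705, 443 and 602 in untreated and 520.4, 381 and 547 in treated caMKK6 libraries. CTGF, the product of Ccn2, was low in treated caMEK1 libraries alone, and the caMKK6 groups overlapped. The difference was -2.20 ± 0.41 (adjusted p = 5.52e-04). Ccn1 fell from 540.0 to 615 FPKM down to 216 to 237 under caMEK1 and differed by -1.13 ± 0.12 (adjusted p = 1.20e-06). Ccn5 fell under both kinases and its difference of -2.14 ± 0.51 (adjusted p = 0.00437) lost its call with caMKK6 replicate 1 alone (adjusted p = 0.0625). Ccn3 was the exception, rising under both kinases and more under caMEK1, at 1.72 ± 0.32 (adjusted p = 5.48e-04).

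**Figure D4:**
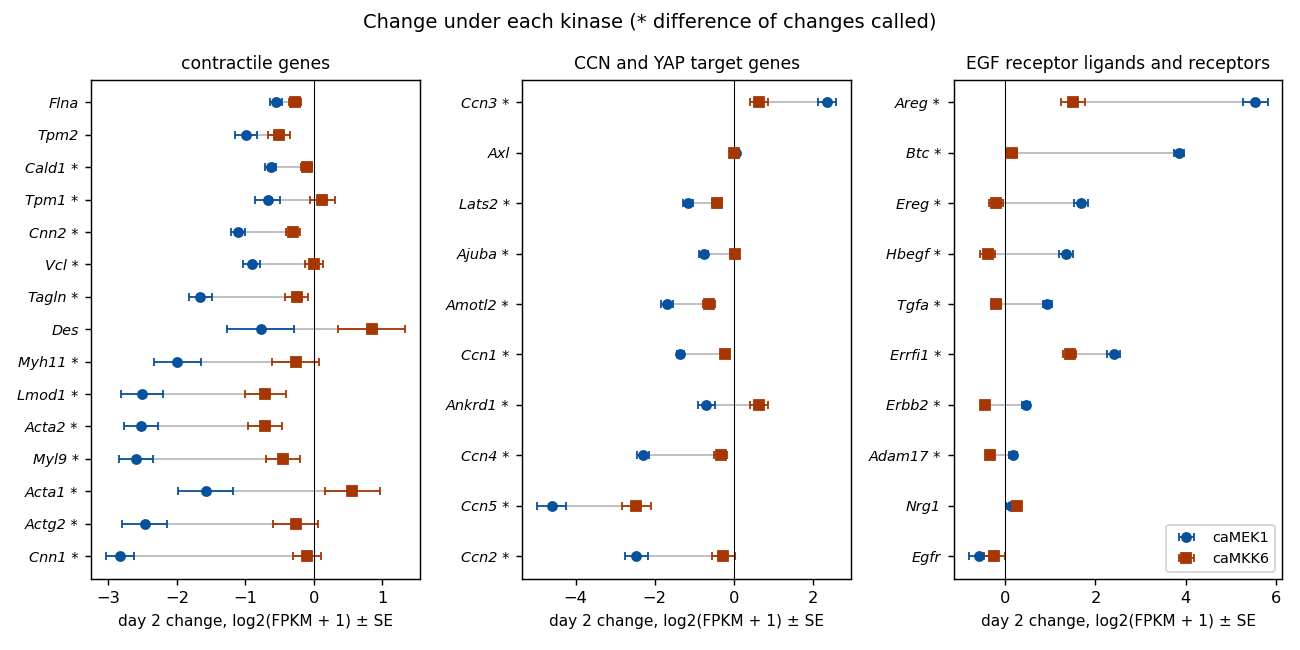
Day 2 change under caMEK1 (blue circles) and caMKK6 (brown squares) for each tested member of 3 lists, in log2(FPKM + 1) with SE, a star marking a called difference. The contractile genes lie to the left of 0 under caMEK1 and farther right under caMKK6, Ccn3 stands apart from the other CCN genes, and Areg and Btc show the widest gaps among the EGF receptor ligands.

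The fibrillar collagens Col1a1, Col1a2 and Col5a2 fell under both kinases and further under caMEK1, whereas some other collagens were higher there. Of 17 collagens tested, 3 were higher and 5 lower (median -0.48), 4 higher and 8 lower under the block within genotype and 3 higher and 3 lower with caMKK6 replicate 1 alone. Col1a1 read 528, 690.0 and 509.6 FPKM in untreated and 105, 111 and 92.8 in treated caMEK1 libraries, against 755, 848 and 690.1 in untreated and 384, 285 and 466 in treated caMKK6 libraries. Col1a1, the main chain of type I collagen, differed by -1.43 ± 0.32 (adjusted p = 0.00236). Col12a1, which associates with fibrils, fell from 77.9 to 87.3 FPKM down to 13.96 to 17.5 under caMEK1 and overlapped between the caMKK6 groups, for -2.35 ± 0.28 (adjusted p = 3.61e-06). Higher members were Col5a3, Col18a1 and Col16a1. Col5a3 rose under caMEK1 and fell under caMKK6 (2.41 ± 0.29 (adjusted p = 3.80e-06)), Col18a1, the endostatin precursor, rose under caMEK1 (1.97 ± 0.21 (adjusted p = 1.02e-06)), and Col16a1 fell under caMKK6 (1.31 ± 0.26 (adjusted p = 8.20e-04)).

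Matrix glycoproteins and crosslinking enzymes were lower for 9 of 24 tested and higher for 1, Loxl3 (median -0.71). That call for Loxl3 was lost under both median scaling and quantile normalization, the block within genotype gave 3 higher and 12 lower, and caMKK6 replicate 1 alone 0 higher and 6 lower. Lox read 616, 671 and 587 FPKM in untreated and 96.1, 104 and 87.8 in treated caMEK1 libraries, against 634, 583 and 523 in untreated and 441, 468 and 437 in treated caMKK6 libraries. Lysyl oxidase, which crosslinks collagen, fell under both kinases, and the treated caMEK1 libraries stood below all others. Lox changed by -2.69 ± 0.12 under caMEK1 (adjusted p = 9.50e-13) and -0.37 ± 0.12 under caMKK6 (adjusted p = 0.0197), a difference of -2.33 ± 0.17 (adjusted p = 4.12e-09). Postn read 29.5, 33.3 and 31.2 FPKM in untreated and 7.18, 8.64 and 7.26 in treated caMEK1 libraries, against 66.97, 94.3 and 72.4 in untreated and 108, 151 and 126 in treated caMKK6 libraries. Periostin went in opposite directions, with a difference for Postn of -2.61 ± 0.31 (adjusted p = 2.95e-06) beside an untreated difference of -1.27 (adjusted p = 0.00170). Thrombospondins 1 and 2 differed by -1.53 ± 0.20 and -1.99 ± 0.41 (adjusted p = 8.33e-06 and 0.00131). Fibronectin, Fn1, at -0.50 ± 0.31 was not called (adjusted p = 0.266).

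TGF-beta ligands, which drive matrix and contractile genes in fibroblasts, were not moved together. Of 16 pathway genes, 1 was higher and 4 lower (median -0.022), and 1 and 2 with caMKK6 replicate 1 alone. Tgfb1 rose under caMEK1 from 9.18 to 10.1 FPKM up to 31.3 to 35.5 and differed by 1.54 ± 0.12 (adjusted p = 1.97e-08). Tgfb3 fell under caMEK1 from 59.2 to 72.7 down to 15.7 to 19.3, for -1.46 ± 0.36 (adjusted p = 0.00533), and Tgfb2 fell under both kinases (-1.24 ± 0.21 (adjusted p = 2.26e-04)). Inhba rose under both, with a difference of -0.21 ± 0.18 that was not called (adjusted p = 0.432).

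Several integrins, the receptors for matrix, were higher under caMEK1. Of 17 tested genes of this list, which also holds osteopontin (Spp1) and Cd44, 5 were higher, Spp1 among them, and 1 lower (median 0.19). Over all genes 14.7% were higher and 8.80% lower. The block within genotype gave 5 higher and 2 lower for the list. Itga2 read 0.540, 0.595 and 0.673 FPKM in untreated and 16.8, 21.4 and 24.9 in treated caMEK1 libraries, against 0.896, 0.843 and 1.33 in untreated and 0.436, 1.06 and 0.770 in treated caMKK6 libraries. Itga2, a collagen receptor chain, stood above 16 FPKM in treated caMEK1 libraries and below 1.4 elsewhere, a difference of 3.98 ± 0.22 (adjusted p = 1.22e-10). Itga6, a laminin receptor chain, rose under caMEK1 and fell under caMKK6 (2.84 ± 0.22 (adjusted p = 9.46e-09)). Spp1 read 465, 469 and 343 FPKM in untreated and 7851, 8144 and 7139.9 in treated caMEK1 libraries, against 69.5, 223 and 239.6 in untreated and 313, 1069 and 625 in treated caMKK6 libraries. Osteopontin rose under both kinases and reached the highest level of the genes named here. Spp1 differed by 2.26 ± 0.61 (adjusted p = 0.00964), and the call was lost with quantile normalization (adjusted p = 0.136). Itgb5 was lower, at -1.03 ± 0.20 (adjusted p = 7.62e-04), and Itgb1 at -0.24 ± 0.19 was not called (adjusted p = 0.405).

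Axon guidance and neuronal genes gave some of the largest differences although the cells are fibroblasts. Of 20 semaphorins and receptors tested, 8 were higher and 2 lower (median 0.41), and 7 and 1 with caMKK6 replicate 1 alone. Sema7a read 1.80, 2.14 and 1.75 FPKM in untreated and 139.7, 149 and 146 in treated caMEK1 libraries, against 0.862, 3.43 and 4.18 in untreated and 4.11, 9.19 and 4.99 in treated caMKK6 libraries. The membrane-anchored Sema7a also rose under caMKK6 (0.96 ± 0.36), and its difference was 4.70 ± 0.50 (adjusted p = 8.30e-07). Plxna4, Sema6d and Sema4b followed at 2.55, 2.47 and 2.09 (adjusted p = 2.19e-10, 9.03e-07 and 1.81e-08), Plxna4 beside an untreated difference of -0.45 (adjusted p = 0.0118). Over this list the block within genotype gave 11 higher and 2 lower.

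Of 13 neuronal genes, 3 were higher and 4 lower (median -0.18), and 3 and 1 with caMKK6 replicate 1 alone. Nptx1 read 1.57, 1.81 and 1.67 FPKM in untreated and 76.2, 76.6 and 107 in treated caMEK1 libraries, against 2.14, 4.45 and 4.94 in untreated and 2.95, 5.36 and 4.71 in treated caMKK6 libraries. Neuronal pentraxin 1 changed by 5.01 ± 0.31 under caMEK1 (adjusted p = 9.15e-11) and 0.16 ± 0.31 under caMKK6 (adjusted p = 0.707), a difference of 4.85 ± 0.43 (adjusted p = 7.16e-08). Nefl read 0.400, 0.301 and 0.409 FPKM in untreated and 40.4, 43.3 and 49.1 in treated caMEK1 libraries, against 0.0263, 2.22 and 2.42 in untreated and 0.307, 3.48 and 2.14 in treated caMKK6 libraries. Neurofilament light was near 0 in caMKK6 replicate 1 and at 2 FPKM or more in replicates 2 and 3, the libraries that also list the MEK1 transgene. The difference for Nefl was 4.81 ± 0.61 (adjusted p = 6.48e-06), and 4.69 (adjusted p = 7.58e-09) with replicate 1 alone. Stmn4 read 0.106, 0.0624 and 0.127 FPKM in untreated and 0.105, 0.0691 and 0.0760 in treated caMEK1 libraries, against 1.07, 0.185 and 0.249 in untreated and 15.7, 11.7 and 14.1 in treated caMKK6 libraries. Stathmin 4 was instead raised in treated caMKK6 libraries alone, at -3.36 ± 0.37 (adjusted p = 1.12e-06), with an adjusted p of 0.0728 by voom. Among neural lineage markers Sox2 was higher at 2.52 ± 0.15 (adjusted p = 2.41e-10), while Gfap and Elavl3 did not pass the filter on low values.

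Of 11 Notch pathway genes 6 were tested, with 4 higher and none lower (median 0.97, and 1.09 with caMKK6 replicate 1 alone). Dll1 and Notch3 had highest day 2 group means of 1.35 and 2.07 FPKM, and Notch3 lost its call in 9 of 21 alternatives. A gene this low can pass the filter through the group where it is high, so the count is a description. The receptor Notch2 rose under caMEK1 from 6.78 to 7.29 FPKM up to 26.7 to 32.0 and differed by 1.63 ± 0.15 (adjusted p = 7.04e-08). Notch1 rose under caMEK1 and fell under caMKK6 (1.50 ± 0.23 (adjusted p = 8.26e-05)), and the ligand Dll1 rose under caMEK1 (1.21 ± 0.13 (adjusted p = 1.26e-06)). Hes1, a transcriptional target of the pathway, fell under both kinases, with a difference of -0.13 ± 0.20 that was not called (adjusted p = 0.710).

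Among the cell cycle inhibitors that mark senescence, p15 and the Cdkn2a locus differed at day 2 and p21 had no call. Of 7 CDK inhibitors tested, 2 were higher and 1 lower (median 0.22), 3 higher and 2 lower under the block within genotype and 2 higher and 0 lower with caMKK6 replicate 1 alone. Cdkn2b read 45.3, 61.2 and 75.2 FPKM in untreated and 93.1, 135 and 127 in treated caMEK1 libraries, against 71.4, 57.9 and 72.0 in untreated and 44.7, 50.2 and 54.3 in treated caMKK6 libraries. The p15 gene rose under caMEK1 and fell under caMKK6, and Cdkn2b differed by 1.39 ± 0.23 (adjusted p = 1.58e-04). Cdkn2a read 28.8, 35.4 and 42.8 FPKM in untreated and 52.8, 58.7 and 69.6 in treated caMEK1 libraries, against 76.0, 49.99 and 66.6 in untreated and 69.7, 60.4 and 64.9 in treated caMKK6 libraries. For Cdkn2a, whose single entry does not separate p16 from p19, the untreated caMEK1 libraries were the lowest and treated caMEK1 libraries met the caMKK6 range. Its difference was 0.72 ± 0.20 (adjusted p = 0.0132), beside an untreated difference of -0.83 (adjusted p = 0.00178). Cdkn1c, which encodes p57, rose under caMKK6 from 9.36 to 11.4 FPKM up to 26.8 to 40.8 and read 10.5, 18.3 and 23.5 in untreated and 19.7, 23.02 and 21.2 in treated caMEK1 libraries. That difference, -1.24 ± 0.37 (adjusted p = 0.0186), was -1.67 (adjusted p = 0.0576) with caMKK6 replicate 1 alone, and lost its call without untreated caMEK1 replicate 3 (adjusted p = 0.0616) or treated caMKK6 replicate 1 (adjusted p = 0.0516). Cdkn1a read 170.0 ± 9.41 FPKM (SD, n = 3) in untreated and 159 ± 12.4 in treated caMEK1 libraries, 172 ± 5.37 and 183 ± 16.7 in caMKK6 libraries, and its difference of -0.18 ± 0.11 was not called (adjusted p = 0.228).

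Cyclin D1, which carries mitogen signals into the cycle, moved in opposite directions and was the single called gene among 10 G1 cyclins, kinases and Myc. Ccnd1 read 134, 149 and 141 FPKM in untreated and 311, 348 and 346 in treated caMEK1 libraries, against 139, 156 and 169.5 in untreated and 37.4, 30.5 and 55.1 in treated caMKK6 libraries. The 3 treated caMEK1 libraries lay above and the 3 treated caMKK6 libraries below all untreated ones. Ccnd1 changed by 1.24 ± 0.28 under caMEK1 (adjusted p = 0.00142) and -1.93 ± 0.28 under caMKK6 (adjusted p = 3.76e-05), a difference of 3.17 ± 0.40 (adjusted p = 5.98e-06). Ccnd2 and Ccnd3 fell under both kinases, with differences of 0.054 ± 0.30 and -0.19 ± 0.12 that were not called (adjusted p = 0.924 and 0.300), and Myc differed by -0.041 ± 0.11 (adjusted p = 0.839).

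None of 28 proliferation genes had a called difference by limma, and the median was 0.045. At an unadjusted p under 0.05 the count was 0 as well, voom on recovered reads called 0, and the block within genotype called 1 lower. caMEK1 lowered 8 of them and caMKK6 11. Mki67 read 21.4, 22.5 and 18.05 FPKM in untreated and 18.6, 15.9 and 12.4 in treated caMEK1 libraries, against 21.8, 20.9 and 18.6 in untreated and 12.6, 11.8 and 12.4 in treated caMKK6 libraries. Mki67 overlapped between the caMEK1 groups and fell under caMKK6 (-0.69 ± 0.17), and its difference was 0.30 ± 0.24 (adjusted p = 0.408). Lmnb1, the lamin that is lost in senescence, read 37.3 to 46.7 FPKM in untreated and 27.6 to 33.6 in treated caMEK1 libraries and 35.6 to 43.3 and 32.9 to 35.7 in caMKK6 libraries. It fell under caMEK1 (-0.42 ± 0.13) and differed by -0.20 ± 0.18, without a call (adjusted p = 0.457).

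Of 16 p53 targets, 1 was higher and 2 lower (median -0.11), and median scaling made it 1 and 4. The share called over all genes tested was 23.5%. Mdm2, the ubiquitin ligase of p53, was higher at 0.52 ± 0.11 (adjusted p = 0.00184). Gdf15 read 5.66, 5.97 and 5.27 FPKM in untreated and 0.760, 0.822 and 0.905 in treated caMEK1 libraries, against 6.66, 6.38 and 7.77 in untreated and 4.34, 6.15 and 6.76 in treated caMKK6 libraries. Gdf15, a stress cytokine, was low in treated caMEK1 libraries alone and differed by -1.61 ± 0.30 (adjusted p = 5.76e-04), or -1.34 (adjusted p = 0.0563) with caMKK6 replicate 1 alone. Plk2, a polo-like kinase, fell under caMEK1 and rose under caMKK6 to 203 to 237 FPKM, for -2.06 ± 0.23 (adjusted p = 1.87e-06).

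Sterol synthesis genes, which SREBP2 controls together, were lower for 8 of 14 tested and higher for 1 (median -0.55), and lower for 4 with caMKK6 replicate 1 alone. Cyp51 read 53.8, 55.3 and 51.7 FPKM in untreated and 30.1, 32.8 and 27.5 in treated caMEK1 libraries, against 55.7, 61.6 and 47.6 in untreated and 73.5, 67.7 and 56.9 in treated caMKK6 libraries. Cyp51, the lanosterol demethylase, fell under caMEK1 and overlapped between the caMKK6 groups, and differed by -1.07 ± 0.21 (adjusted p = 6.72e-04). Hmgcs1, Insig1 and Idi1 differed by -0.79, -0.77 and -0.79 (adjusted p = 0.00476, 0.00664 and 0.0284), and the call for Idi1 was lost without any of 5 libraries. Dhcr7, the last enzyme of the pathway, went up under caMEK1 and down under caMKK6 (0.99 ± 0.17 (adjusted p = 1.83e-04)). With the block within genotype 1 gene of the list was higher and 10 were lower.

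Genes of the integrated stress response were called higher for 3 of 13 and lower for 1 (median 0.029), and 2 and 3 under median scaling. With caMKK6 replicate 1 alone limma called 0, with 2 at an unadjusted p under 0.05. Phgdh and Psat1, which make serine, were the main higher members at 1.02 and 0.78 (adjusted p = 0.00263 and 0.00606). Among 15 lysosome genes Npc1, a cholesterol exporter, differed by 1.17 ± 0.10 (adjusted p = 5.10e-08) beside an untreated difference of -0.51 (adjusted p = 2.93e-04), and the protease gene Ctsl by 1.07 ± 0.28 (adjusted p = 0.00740), or 1.19 (adjusted p = 0.0682) with caMKK6 replicate 1 alone. No other member was called, though median scaling made 1 lower and the block within genotype gave 4 higher and 2 lower. Of 6 interferon-stimulated genes Ifit3 alone was called, at -1.39 ± 0.32 (adjusted p = 0.00344), having risen under caMKK6 to 2.26 to 4.60 FPKM.

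Placental prolactin genes, which are near-identical copies whose reads the counting could split, rose together under both kinases. caMEK1 raised 5 and caMKK6 6 of 6 tested, and 1 difference was called, lower for Prl2c5 (median -0.19), against 2 higher and 2 lower under the block within genotype. That call was lost without any of 6 libraries, and with caMKK6 replicate 1 alone limma called 0, with 2 at an unadjusted p under 0.05. Prl2c3 read 0.249, 0.220 and 0.718 FPKM in untreated and 33.6, 34.6 and 63.6 in treated caMEK1 libraries, against 0.849, 4.11 and 2.16 in untreated and 111, 205 and 111 in treated caMKK6 libraries. All treated libraries exceeded all untreated ones by far, and the difference of -0.50 ± 0.64 was not called (adjusted p = 0.633).

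The remaining genes with the largest differences were of mixed function. Ccr1, a chemokine receptor, reached 22.03 to 26.1 FPKM in treated caMEK1 libraries and stayed at 2.13 or below in the others, for 3.89 ± 0.34 (adjusted p = 5.72e-08). Tslp, an epithelial cytokine, rose under caMEK1 alone by call, from 1.41 to 1.63 up to 32.0 to 47.7 FPKM (3.77 ± 0.34 (adjusted p = 8.99e-08)). Sh2d5 and Lratd1 stood between 21.1 and 29.1 FPKM in treated caMEK1 libraries and at 1.46 or below elsewhere, with differences of 3.79 ± 0.22 and 3.77 ± 0.24 (adjusted p = 2.86e-10 and 6.46e-10). On the lower side, Sprr1b, a cornified envelope protein, was under 0.5 FPKM in 9 libraries and at 8.55 to 13.99 in treated caMKK6 libraries (-3.28 ± 0.27 (adjusted p = 2.42e-08)). Hsd3b6 read 0.338, 0.265 and 0.542 FPKM in untreated and 1.00, 0.882 and 2.14 in treated caMEK1 libraries, against 0.0493, 0.275 and 0.113 in untreated and 20.1, 36.2 and 8.21 in treated caMKK6 libraries. The steroid dehydrogenase Hsd3b6 varied most among treated caMKK6 libraries, and its difference of -3.35 ± 1.00 (adjusted p = 0.0186) was -3.60 (adjusted p = 0.116) with replicate 1 alone, had an adjusted p of 0.0567 without treated caMKK6 replicate 2 and 0.386 by voom. Cma2 read 0.0615, 0.109 and 0 FPKM in untreated and 0.853, 0.542 and 0.398 in treated caMEK1 libraries, against 0.0808, 0.193 and 0 in untreated and 7.54, 28.4 and 12.5 in treated caMKK6 libraries. Cma2, a chymase-like protease, gave -3.20 ± 0.55 (adjusted p = 2.40e-04), with 0.355 by voom. The 7 genes listed as mast cell markers summed to 8.43 to 15.5 FPKM in untreated and 119 to 251 in treated caMEK1 libraries. In caMKK6 libraries the sums were 1.70 to 5.27 and 52.0 to 166. Mcpt8 made up these sums, and Cpa3, Kit, Fcer1a, Mcpt4, Tpsb2 and Cma1 were under 1 FPKM in every library. The sums therefore describe Mcpt8 alone and do not mark mast cells, and the part of any such cells in Cma2 was not tested. The histone genes H3c2 and H2ac4, whose copies are close to identical, differed by -3.52 ± 0.40 and -3.15 ± 0.46 (adjusted p = 1.59e-06 and 3.61e-05), falling under caMEK1 and rising under caMKK6.

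The differences seen at day 2 can be set beside those at days 4 and 7, which use other treated libraries and the same untreated ones, so that the 3 estimates share their baseline and were not tested against each other. Nptx1 stood at 4.85 ± 0.43, 6.79 ± 0.43 and 7.56 ± 0.43 at days 2, 4 and 7, Nefl at 4.81, 6.96 and 7.38, and Sema7a at 4.70, 6.03 and 6.24. Dusp6 read 2.12, 2.64 and 2.76, and Cnn1 -2.74, -4.43 and -4.27. Other genes had estimates nearer to 0 later on. Ccl11 went from -3.96 ± 0.54 at day 2 to -3.59 ± 0.54 and -1.85 ± 0.54, Cxcl5 from -3.47 ± 0.90 to -1.88 ± 0.90 and 0.32 ± 0.90, and Hmox1 from -1.01 ± 0.24 to -0.52 ± 0.24 and -0.13 ± 0.24. F3 stood at -3.07, -3.18 and -3.01. Over the same days the mean of the human MKK6 transgene in caMKK6 libraries was 969.6, 747 and 334 FPKM, and that of the MEK1 transgene in caMEK1 libraries 1079, 777 and 535 FPKM. The part of these levels in the differences was not tested.

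**Figure D5:**
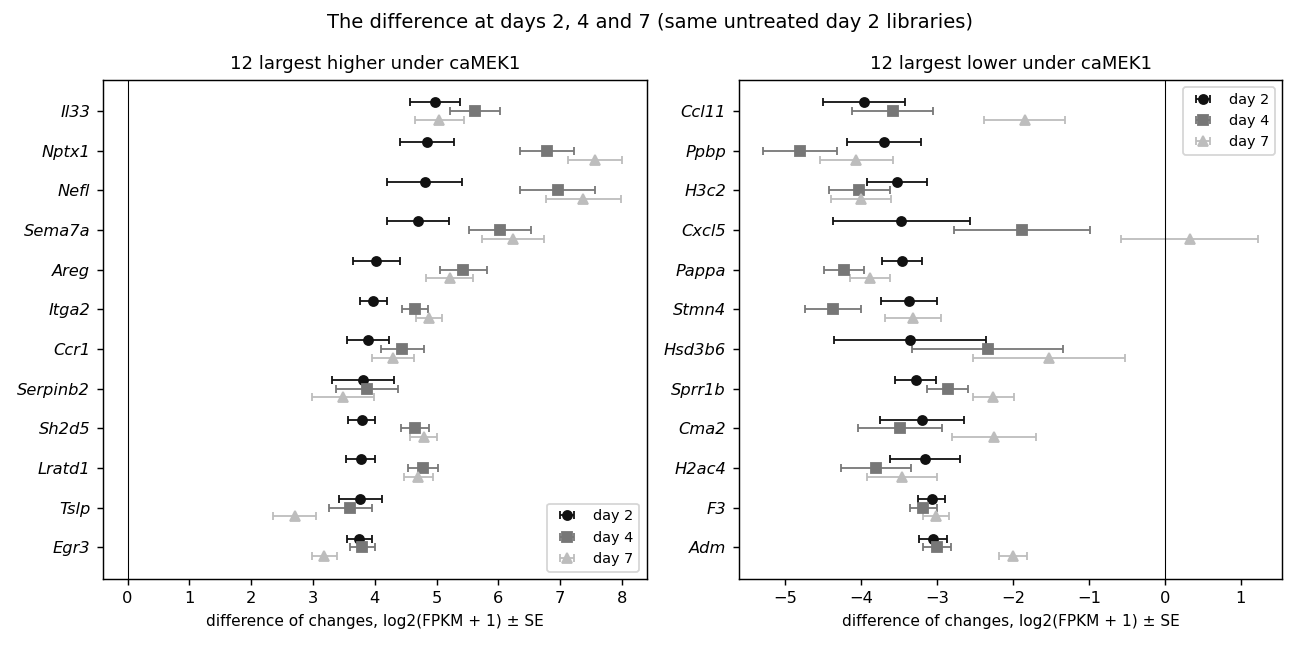
Difference of changes at days 2, 4 and 7 (log2(FPKM + 1) with SE) for the 12 genes highest and the 12 lowest at day 2, all measured against the untreated libraries of day 2. Nptx1, Nefl and Sema7a lie farther from 0 at days 4 and 7, while Ccl11, Cxcl5 and Hsd3b6 lie nearer to 0 at day 7 than at day 2.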

How the data were processed

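RNA-seq gene levels were read from 1 deposited table of FPKM (fragments scaled by transcript length and library depth) for 21863 entries in 70 libraries. Per the submitters' processing notes, reads were trimmed with cutadapt 1.12 and aligned with STAR 2 to mm10; the step and annotation by which the authors made the FPKM values are not given in the sources used here. FPKM values were whole multiples of 1 read per gene length (GENCODE M21 exons, tolerance 0.02 of a read, for values under 1000 reads), so read totals per library could be given. Sample groups come from the labels.

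Values were tested as log2(FPKM + 1), which understates fold changes of low genes, with limma 3.58.1 (lmFit, contrasts and trended eBayes) in R 4.3.3. The fit held all 24 fibroblast libraries, 3 in each of 8 groups, with 16 residual degrees of freedom. It covered the 11347 genes that reached 1 FPKM in 3 or more of these libraries. A gene near 1 FPKM can pass through the group where it is high, which then favours that direction. Tests were two-sided, and called means an adjusted p below 0.05 by the Benjamini-Hochberg method across every gene in the fit. Errors after ± are standard errors of the fit unless given as SD. The steps were tested on simulated data. Tables and figures used Python 3.11.15, pandas 2.3.3 and matplotlib 3.10.9.

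The members and gene lists were chosen with earlier results of these data known. Named genes were the 12 highest and the 12 lowest called differences among genes with a mean of 5 FPKM or more in a day 2 group, predicted genes and pseudogenes passed over, together with 16 watched genes and up to 6 called members of each list. Further members named were chosen after their values were seen. Spry3 and Mx1 were not in the table under these symbols. Some list members are counted but their values are not reported here. Genes under repeated symbols (24 symbols, 50 entries) were kept as separate entries.

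Replicate numbers paired libraries within a genotype, where deviations of same-numbered libraries from their group means correlated at 0.361 to 0.526 (6 pairs), against -0.429 to 0.0151 for other numbers. Between genotypes same-numbered libraries correlated at -0.204 to 0.185 (12 pairs). A block within genotype was therefore fitted as an alternative, next to a plain replicate block, a pseudocount of 0.1, no filter, median scaling, quantile normalization, the 12 day 2 libraries alone, each library left out in turn, the libraries listing the other transgene left out, and limma's voom on the recovered reads. Promoter windows are RefSeq's, 250 bases before to 50 after a gene's start.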

Additional observations from a re-analysis of the deposited data

Results flagged for a closer look

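The response to caMEK1 differed by call from the response to caMKK6 for 12 of 16 genes watched for their role in these pathways. Over all genes tested the share called was 23.5%, and the watched genes were chosen with earlier results of these data known. The 24 named genes with the largest differences were picked among the calls of this same contrast, so their values are a description. On the higher side the differences (log2) were 4.97 for Il33, 4.85 for Nptx1, 4.81 for Nefl, 4.70 for Sema7a, 4.03 for Areg, 3.98 for Itga2, 3.89 for Ccr1 and 3.81 for Serpinb2. Sh2d5 followed at 3.79, Lratd1 at 3.77, Tslp at 3.77 and Egr3 at 3.75. On the lower side they were -3.96 for Ccl11, -3.70 for Ppbp, -3.52 for H3c2, -3.47 for Cxcl5, -3.46 for Pappa and -3.36 for Stmn4. Hsd3b6 stood at -3.35, Sprr1b at -3.28, Cma2 at -3.20, H2ac4 at -3.15, F3 at -3.07 and Adm at -3.06.

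Among the watched genes, signalling genes differed by 1.19 for Map2k6, 2.12 for Dusp6, 1.76 for Spry4, 2.17 for Egr1 and 0.97 for Fosl1. The stress genes Hspb1 and Hmox1 differed by -2.46 and -1.01. Cell cycle inhibitors differed by 0.72 for Cdkn2a, 1.39 for Cdkn2b and -1.24 for Cdkn1c, and the secreted factors Il6 and Gdf15 by -2.41 and -1.61.

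Reads of the frog MEK1 transgene appeared in libraries of the other line, above its level in untreated caMEK1 libraries. The treated caMKK6 replicates 2 and 3 listed 16.53 and 12.23 FPKM and the untreated caMKK6 replicates 2 and 3 listed 10.96 and 16.01 FPKM, while replicate 1 of both groups listed 0.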

How the results depend on the processing

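None of the 179 named differences reversed its sign under the alternatives run. Leaving out the libraries that list the other transgene, which leaves 1 caMKK6 library per day 2 group, gave 920 higher and 434 lower differences, 492 genes higher and 992 lower under caMKK6, and 154 higher and 125 lower between untreated lines. Of 175 named called genes 127 were still called there, and all 175 kept their direction. Replicate block: pairing by number within genotype gave 1506 lower and 2330 higher differences, ended no named call, and could not be fitted for contrasts between genotypes; the plain block called 1837 higher and 1120 lower. Median scaling turned the treated level difference into 2286 higher and 2892 lower, and the difference of changes into 45.9% higher of all called against 62.5%. The cause was not tested in any of these.

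With 1 library left out, differences ranged from 1430 to 1585 higher and 838 to 915 lower, caMEK1 changes from 1883 to 2231 and 1894 to 2267, caMKK6 changes from 1183 to 1602 and 2127 to 2765, and treated levels from 2929 to 3542 and 1503 to 1822. Between untreated lines the range was 219 to 466 higher and 117 to 289 lower. Without untreated caMEK1 replicate 1, 2 or 3 these were 219, 257 and 267 higher and 117, 142 and 160 lower, without untreated caMKK6 replicate 2 they were 244 and 144, and without its replicate 1 129 were lower. Of the named called genes 154 were called in every such fit. Totals called were 2708 with a pseudocount of 0.1, 2671 without the filter, 2928 on the 12 libraries alone and 2433 with voom, which ended 13 named calls. Depth limits genes under about 1 FPKM most, where few reads stand behind a value.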

Other observations

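Histone genes of all kinds were collected by symbol after their values were seen, so their count is a description. Of 34 tested, 15 were called lower and 1 higher, the linker histone H1f0 (0.47), beside 8.80% lower and 14.7% higher over all genes tested. H3c3 and H2bc8 differed by -1.52 and -1.51, and the linker histone H1f2 by -1.43, falling under caMEK1 (-0.80) and rising under caMKK6 (0.63). Many of these genes are near-identical copies whose reads the counting could split, so single values are uncertain.

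Some cell type markers also differed. Of 6 epithelial markers tested, 2 were higher and 1 lower. The claudin Cldn4, a tight junction protein, differed by -3.004 and rose under caMKK6 (3.41), whereas the adhesion genes Epcam and Cdh1 were higher at 1.38 and 1.25 and rose under caMEK1. All 3 were under 1 FPKM in every untreated library. Of 2 chondrocyte markers tested, the factor Sox9 differed by 2.39, and Col2a1 by -0.175 without a call. Of 2 endothelial markers tested, the cadherin Cdh5 differed by 1.20, and Kdr by -0.58 without a call. The fibroblast receptor Pdgfra differed by 1.65, the highest of 10 fibroblast markers, whose median was -0.67 and whose lowest was -1.43. Its call was lost with caMKK6 replicate 1 alone. The highest group means of Epcam, Cdh1 and Cdh5 were 1.91, 1.36 and 1.97 FPKM, and those of Cldn4, Sox9 and Pdgfra 12.8, 15.2 and 14.6 FPKM. At day 2 Epcam, Cdh1 and Cdh5 reached 1 FPKM in treated caMEK1 libraries alone, so the filter favoured their direction. Of 10 fibroblast markers 2 were higher and 2 lower, and of 3 adipocyte markers 1 was lower. Limma called 0 of the 2 tested genes of the mast cell list, Mcpt8 and Kit. No skeletal muscle or erythroid marker passed the filter on low values.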
